A study of Mus musculus with 25 samples.

Results

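The genes Lrp8, Slit1, Dscaml1, Prox1, Shf and Gadd45g, a set of core neurogenic genes, were followed through an ATAC-seq experiment on astrocytes transduced with Neurog2, Hmgb2 or both. Their regions were the accessible sites (peaks) for which the closest start of transcription (TSS) of any protein-coding gene was one of a member, at most 100 kb away. The rule found 37 of the 45672 peaks of the experiment. A peak within 3 kb of the TSS was read as a promoter peak (14 members) and one farther away as a distal peak (23 members). Lrp8, Shf and Gadd45g had 8 peaks each, Slit1 had 7, and Prox1 and Dscaml1 had 3 each. The study's text names 5 of these genes among the neurogenic or neuronal genes that it follows. It reports their RNA response to Neurog2 in cells of the same sorts. Slit1 RNA rose in both cultures. RNA of Dscaml1, Prox1, Lrp8 and Shf rose with Neurog2 in EGF+bFGF only, and in bFGF with Neurog2+Hmgb2. The shares of members set beside all peaks below are therefore not independent of how these genes were chosen. Gadd45g was not found in that text and stands here by the rule alone.

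The cells were cortical astrocytes of wild-type C57BL/6J mice, labelled as grey matter and taken at postnatal day 5 to 6 per the growth protocol (6 to 8 per the series text). They were expanded either with EGF plus bFGF or with bFGF as the only factor, at 10 ng/ml of each. Each culture received retroviruses for Neurog2, for Neurog2 with Hmgb2 (Neurog2+Hmgb2), for Hmgb2, or a Control virus carrying only a fluorescent reporter, and 50000 fluorescent cells per library were sorted 48 h later. The viruses drive their insert from the CAG promoter and are of a kind that integrates only in dividing cells. Oligodendrocyte precursors had been shaken off the cultures. The 25 libraries form 8 groups of 3, with 4 libraries for Hmgb2 in EGF+bFGF. No label states that replicates stem from different mice or dishes. The p-values therefore rest only on how far libraries of the same group spread, pooled over all 8 groups, and part of that may be technical. The standard errors come from the same pooled spread and do not describe that of the compared groups alone.

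Neurog2 is a proneural transcription factor of the basic helix-loop-helix class, which binds short DNA words called E-boxes (CANNTG) and starts neuronal programmes in cortical progenitors. Hmgb2 is a chromatin protein that bends DNA without a strict sequence preference. Among the members, Lrp8 (also called ApoER2) is a receptor for reelin, the signal that guides migrating cortical neurons, and Slit1 is a secreted axon guidance cue read by Robo receptors. Dscaml1 is a cell adhesion molecule of the immunoglobulin superfamily, and Prox1 is a homeobox transcription factor known for its part in hippocampal granule neurons. Shf is an adaptor protein with an SH2 domain, and Gadd45g belongs to a family of stress-induced proteins linked to growth arrest.

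A selection of the sites that rose with Neurog2 is shown first. Each run is a 300-base window at the centre of the peak, on the plus strand of GRCm38.p6 (the assembly of mm10), with the word CAGATG, which reads as CATCTG on the opposite strand, and the word CAGCTG in capitals. The first 5 are among the 6 distal peaks with the smallest p-values over the mean of 4 settings defined below. The last, an intron site of Shf within 3 kb of a TSS, was added after its values had been seen.
Lrp8 intron site, chr4:107817436-107817735: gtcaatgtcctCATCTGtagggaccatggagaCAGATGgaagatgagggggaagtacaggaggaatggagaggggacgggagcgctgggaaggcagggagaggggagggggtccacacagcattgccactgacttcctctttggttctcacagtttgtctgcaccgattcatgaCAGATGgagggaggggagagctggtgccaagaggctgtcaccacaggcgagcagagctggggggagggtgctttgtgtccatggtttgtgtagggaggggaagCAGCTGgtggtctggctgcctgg
Slit1 intron site A, chr19:41688205-41688504: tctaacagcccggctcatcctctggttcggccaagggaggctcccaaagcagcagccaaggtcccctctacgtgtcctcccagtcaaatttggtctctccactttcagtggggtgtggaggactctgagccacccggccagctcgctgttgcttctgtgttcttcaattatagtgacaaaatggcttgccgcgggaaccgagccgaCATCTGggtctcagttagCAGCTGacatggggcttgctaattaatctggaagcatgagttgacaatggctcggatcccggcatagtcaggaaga
Dscaml1 intron site, chr9:45592403-45592702: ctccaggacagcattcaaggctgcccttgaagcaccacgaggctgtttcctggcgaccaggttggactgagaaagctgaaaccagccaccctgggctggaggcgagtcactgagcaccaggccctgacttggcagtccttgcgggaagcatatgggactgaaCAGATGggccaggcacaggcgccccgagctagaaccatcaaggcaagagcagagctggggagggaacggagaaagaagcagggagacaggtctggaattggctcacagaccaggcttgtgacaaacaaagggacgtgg
Slit1 intron site B, chr19:41690128-41690427: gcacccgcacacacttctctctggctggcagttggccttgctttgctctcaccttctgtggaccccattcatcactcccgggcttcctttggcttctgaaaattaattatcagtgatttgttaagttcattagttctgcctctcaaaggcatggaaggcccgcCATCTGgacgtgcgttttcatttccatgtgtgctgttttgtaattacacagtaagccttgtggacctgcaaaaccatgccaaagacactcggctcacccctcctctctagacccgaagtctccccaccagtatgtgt
Gadd45g far site, chr13:51917801-51918100: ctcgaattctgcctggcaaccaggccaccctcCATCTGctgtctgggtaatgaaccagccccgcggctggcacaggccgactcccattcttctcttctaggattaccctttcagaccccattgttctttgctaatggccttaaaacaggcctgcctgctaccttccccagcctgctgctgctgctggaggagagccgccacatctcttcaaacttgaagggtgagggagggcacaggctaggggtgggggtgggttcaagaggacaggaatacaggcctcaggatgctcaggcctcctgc
Shf intron site, chr2:122366045-122366344: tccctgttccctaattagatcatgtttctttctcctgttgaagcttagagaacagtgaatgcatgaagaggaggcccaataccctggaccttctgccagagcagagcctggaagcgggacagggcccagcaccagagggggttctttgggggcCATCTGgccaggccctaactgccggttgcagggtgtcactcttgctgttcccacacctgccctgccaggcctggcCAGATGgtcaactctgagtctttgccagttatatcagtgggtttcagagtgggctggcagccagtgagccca
All of these windows hold CAGATG on 1 strand or the other, the Lrp8 intron site 3 times and the Shf intron site 2 times. CAGCTG stands in the windows of the Lrp8 intron site and Slit1 intron site A.

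Values are regularized log2 (rlog) read counts per peak, scaled between libraries by the authors. The rlog pulls differences at peaks with few reads towards 0, and the depth behind the values is unknown because no counts were used. A difference of 1 would be a doubling if nothing had been pulled in. Over libraries the median rlog value ranged from 4.56 to 4.67. The mean correlation of a library with the others of its group ranged from 0.936 to 0.979, and the lowest was bFGF Neurog2 replicate 2. Promoter peaks were found at 7 of 9 astrocyte marker genes, 6 of 8 of the oligodendrocyte lineage, 4 of 7 of neurons, 3 of 6 of mural cells and fibroblasts, 1 of 5 of endothelium (Kdr) and 1 of 7 of microglia (Csf1r). S100b and Aldoc were the astrocyte markers with none, and Rbfox3, Dcx and Nefl the neuronal ones.

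The transduced genes were checked at the peaks over their coding exons, which can also receive reads from the virus. At Neurog2 (chr3:127633550-127634928) the 12 libraries labelled with Neurog2 had a lowest value of 10.6, a median of 14.2 and a highest value of 16.1, and the 13 libraries without it had 6.76, 7.87 and 12.7. The ranges overlapped. Hmgb2 replicate 1 stood at 12.32 in EGF+bFGF and at 12.70 in bFGF, where the other Hmgb2 libraries had 6.77 to 8.43. EGF+bFGF Control replicates 1 and 2 stood at 10.32 and 10.49, where the other Controls had 6.76 to 7.87. At Hmgb2 (chr8:57513915-57514207) the 13 libraries labelled with Hmgb2 had 6.81 to 11.5 and the 12 without it 4.17 to 6.15, with no overlap. Highest without it were EGF+bFGF Control replicates 1 and 2 (5.85 and 6.15) and bFGF Neurog2 replicate 3 (5.87). The others without it had 4.17 to 4.87. Counts of calls that rest on the libraries that stand apart at Neurog2 are given with and without them, and single peaks only in part.

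The first question was which member peaks changed with Neurog2 alone. In EGF+bFGF culture, 10 of the 37 member peaks rose and none fell (adjusted p under 0.05), where 3.94% of all peaks rose and 1.07% fell. The 10 lay at Lrp8 (4), Slit1 (3), Dscaml1 (2) and Shf (1). Of the 23 distal members 7 rose, beside 5.25% of all distal peaks, and of the 14 promoter members 3 rose, beside 0.974% of all promoter peaks. The median difference was 0.43 over the distal members and -0.05 over all distal peaks. It was 0.19 over the promoter members and 0.02 over all promoter peaks. The 3 Neurog2 libraries lay above the 3 Control libraries at 19 member peaks, with 12.8% of all peaks showing this. Leaving out Neurog2 replicate 2 reduced the 10 calls to 6 (2.19% of all peaks rose), and leaving out any other single library left 7 to 9 that rose (1.74% to 3.61% of all peaks). Without Control replicates 1 and 2, which leaves 1 Control library assumed to vary like the other groups, 1 call remained (Shf), beside 0.777% of all peaks. The differences at the intron sites of Lrp8, Slit1, Dscaml1 and Shf printed above were then 0.86 to 1.16, with larger errors.

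In bFGF culture none of the member peaks passed the limma test for Neurog2 against Control, where 0.898% of all peaks rose and 0.353% fell. At an unadjusted p under 0.05, 8 members were higher and 1 was lower, beside 8.0% and 6.27% of all peaks. The median difference was 0.07 over the distal members and -0.01 over all distal peaks. The count of 0 moved with the settings. Neurog2 replicate 2 had the lowest correlation with its group and the lowest library weight of all (0.311, estimated by limma, where Neurog2 replicate 3 had 3.47). It also had the lowest value over the Neurog2 coding exon among the libraries labelled with Neurog2 (10.6). The part of that low value in the bFGF differences was not tested. Without replicate 2 the Lrp8 intron site rose by 0.87 ± 0.21 (SE, adjusted p = 0.0417), the only member called in that fit, in which 0.677% of all peaks rose. With every library kept, the same site was also called with a replicate block (adjusted p = 0.046) and with the libraries centred to their median (adjusted p = 0.0481). With all 25 libraries weighted 9 members rose, beside 3.36% of all peaks, namely 3 peaks of Lrp8, 2 of Slit1, 2 of Gadd45g, 1 of Dscaml1 and 1 of Shf. That fit rested mostly on Neurog2 replicate 3 for its group, since replicate 1 had a weight of only 0.621. Replicate 3 was also the highest of its group at the Lrp8, Slit1, Dscaml1 and Shf intron sites printed above. Over the Hmgb2 coding exon it had 5.87, against 4.17 and 4.55 in replicates 1 and 2. Whether it carried some Hmgb2 virus was not tested.

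**Figure D1:**
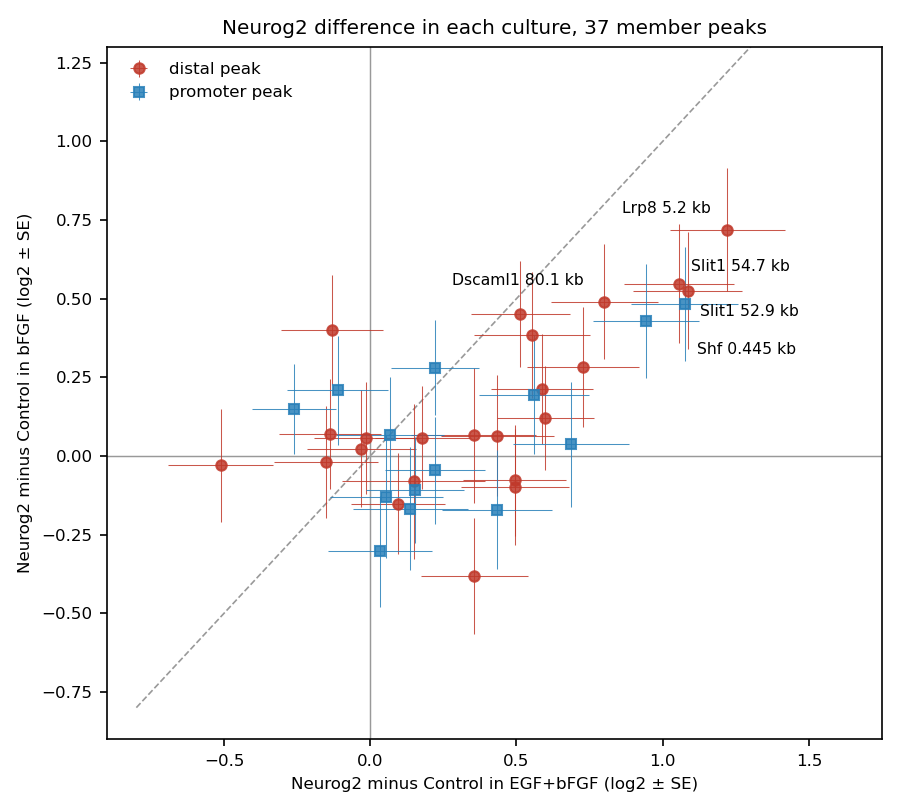
Neurog2 minus Control in EGF+bFGF (horizontal axis) and in bFGF (vertical axis), in log2 units, for the 37 member peaks. Points are differences of group means, bars are standard errors and the dashed line marks equal differences. The labelled peaks lie right of 0.75 on the horizontal axis and under the dashed line, with bFGF differences of 0.48 to 0.72. An unlabelled Lrp8 peak also lies there, at 0.94 and 0.43.

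With Hmgb2 added to Neurog2, the comparison with Control called 6 members higher in EGF+bFGF (3.97% of all peaks rose) and 7 higher in bFGF (2.59% of all peaks rose). None was called lower in either culture, where 1.07% and 0.464% of all peaks fell. Against Hmgb2 alone, Neurog2+Hmgb2 called 15 members higher in EGF+bFGF (5.25% of all peaks rose) and 6 higher in bFGF (1.96% of all peaks rose). Again none was called lower, where 2.41% and 0.236% of all peaks fell. These comparisons share libraries with each other, so their calls are not independent of one another. Several counts moved with single libraries, and the shares over all peaks moved too. Without EGF+bFGF Control replicates 1 and 2, none of the 6 calls against Control remained in the limma fit, where 0.731% of all peaks rose. At an unadjusted p under 0.05, 9 members were then higher, beside 7.04% of all peaks. Without bFGF Control replicate 3 or bFGF Neurog2+Hmgb2 replicate 3, the 7 calls against Control fell to 3 (1.6% and 1.24% of all peaks rose), and without bFGF Control replicate 1 or 2 or Neurog2+Hmgb2 replicate 2 to 4 (1.32% to 1.58%). The 15 calls against Hmgb2 in EGF+bFGF fell to 5 without Neurog2+Hmgb2 replicate 3 (2.1% of all peaks), and to 8 without Neurog2+Hmgb2 replicate 2 or Hmgb2 replicate 3 (3.63% and 3.44%). The 6 calls against Hmgb2 in bFGF fell to 1 without Neurog2+Hmgb2 replicate 3 (0.76% of all peaks), and to 3 without Neurog2+Hmgb2 replicate 2, Hmgb2 replicate 1 or Hmgb2 replicate 2 (0.712% to 1.2%). Without both Hmgb2 libraries that carried signal over Neurog2, the counts against Hmgb2 were 15 in EGF+bFGF and 3 in bFGF, beside 4.99% and 1.19% of all peaks.

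A single value over all 25 libraries was obtained as the mean of 4 settings, Neurog2 minus Control and Neurog2+Hmgb2 minus Hmgb2 in each culture. On this mean 14 members rose (11.4% of all peaks did) and 1 fell (10.6% of all peaks did). The 14 were 10 of the 23 distal members, beside 14.1% of all distal peaks, and 4 of the 14 promoter members, beside 5.73% of all promoter peaks. All 15 calls were kept in each of the 25 fits that left out 1 library. They were also kept without both Hmgb2 replicate 1 libraries, and 14 were kept without EGF+bFGF Control replicates 1 and 2. At 3 members every one of the 12 libraries with Neurog2 lay above every one of the 13 without it (0.893% of all peaks do so). These were the Lrp8 intron site, Slit1 intron site B and the Dscaml1 intron site. In bulk libraries, more cells with an open site and a more open site per cell cannot be told apart.

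**Figure D2:**
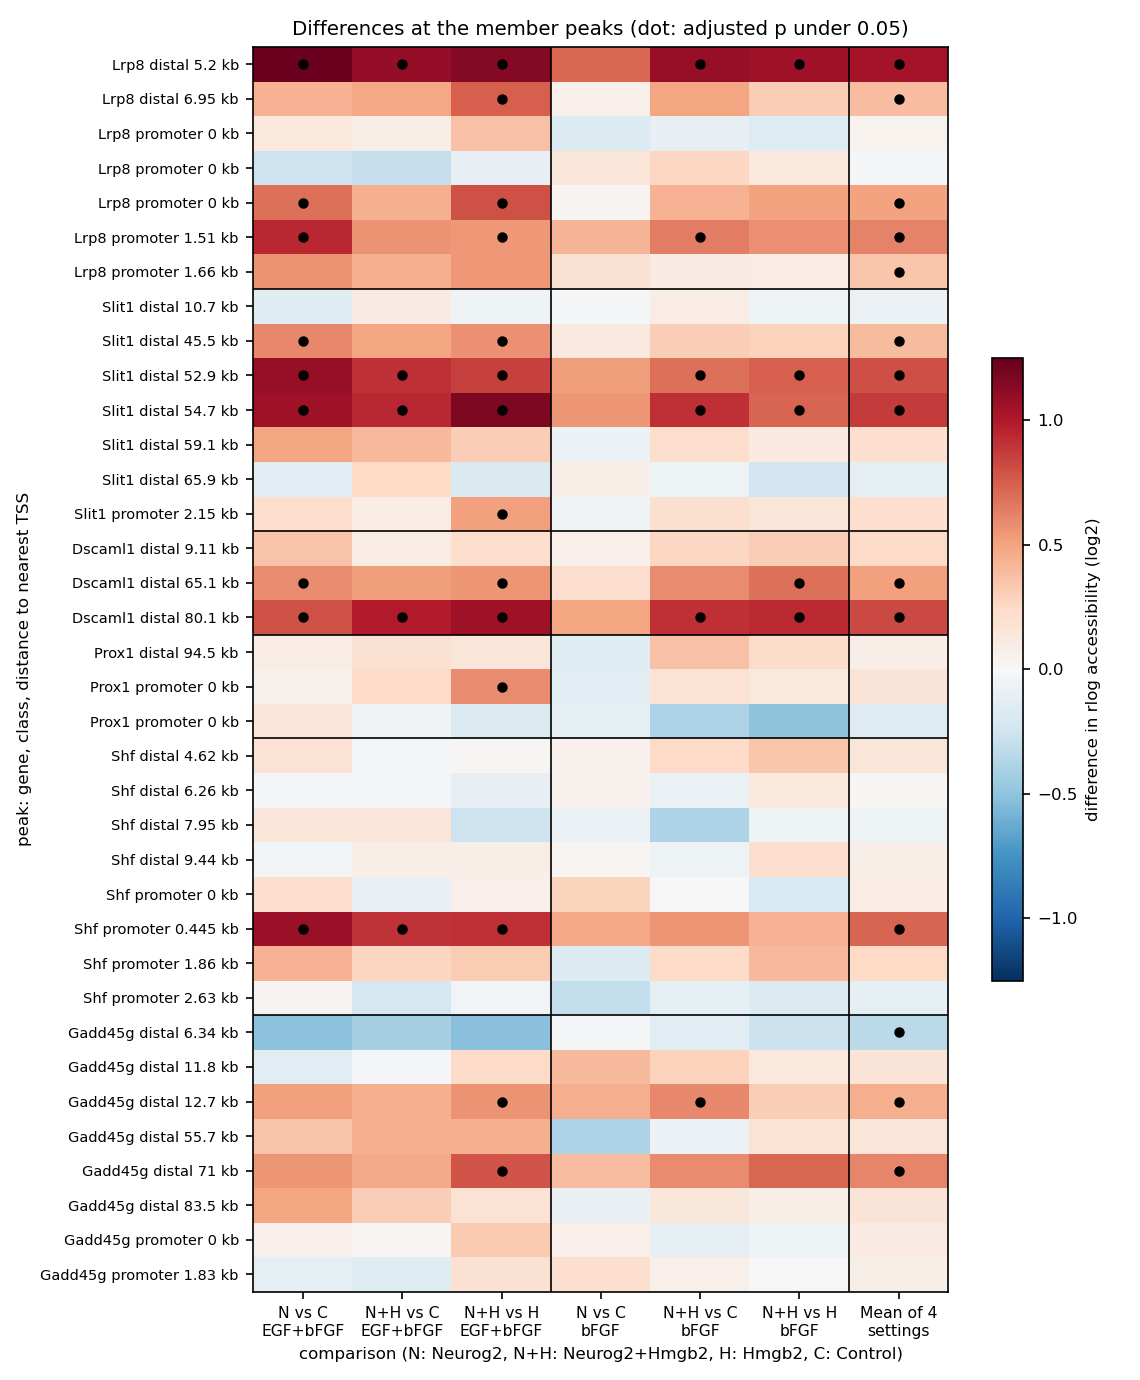
Differences in rlog accessibility (log2, colour scale) at the member peaks (all but 1 of the 37; vertical axis, with class and distance to the TSS) in 6 comparisons and the mean of 4 settings (horizontal axis). Dots mark an adjusted p under 0.05. Calls are dense at Lrp8, Slit1 and Dscaml1, and the column of Neurog2 against Control in bFGF has no dot.

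Lrp8, the reelin receptor, had the member peak with the smallest p-value. Its intron site (chr4:107817209-107817962) lies 5.2 kb from the nearest TSS and 14948 bp from the start of the gene. In EGF+bFGF it had 5.55, 5.32 and 5.26 in Neurog2 libraries, 5.14, 5.12 and 5.51 in Neurog2+Hmgb2 libraries, 4.37, 3.78, 3.84 and 4.43 in Hmgb2 libraries, and 4.17, 4.06 and 4.25 in Control libraries. In bFGF it had 4.83, 4.61 and 5.33 in Neurog2 libraries, 4.95, 5.38 and 5.54 in Neurog2+Hmgb2 libraries, 4.27, 4.09 and 4.34 in Hmgb2 libraries, and 4.13, 4.32 and 4.17 in Control libraries. Libraries with Neurog2 were high and all others low, with no overlap in either culture. Neurog2 raised it over Control by 1.22 ± 0.20 in EGF+bFGF (SE, adjusted p = 0.000317). The same difference in bFGF was 0.72 ± 0.20 (adjusted p = 0.0595). Neurog2+Hmgb2 raised it over Control by 1.10 in EGF+bFGF (adjusted p = 0.000886) and by 1.08 in bFGF (adjusted p = 0.00177). The mean over 4 settings was 1.04 ± 0.10 (adjusted p = 4.78e-09). Without EGF+bFGF Control replicates 1 and 2 the EGF+bFGF difference for Neurog2 was 1.13 ± 0.29 (adjusted p = 0.0565).

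Inside Lrp8 another distal peak (chr4:107857081-107857562, 6.95 kb from a TSS) rose by 0.75 ± 0.18 in Neurog2+Hmgb2 over Hmgb2 in EGF+bFGF (adjusted p = 0.00878, lost without Neurog2+Hmgb2 replicate 3) and by 0.39 over the mean of 4 settings (adjusted p = 0.00322). By the TSS of protein-coding transcripts only, this distal peak is nearest to Magoh (22193 bp) and is then no member. A further 3 intron peaks within 3 kb of internal start sites also rose. The one at chr4:107821277-107821654 had 4.59, 4.62 and 4.51 with Neurog2 in EGF+bFGF, against 3.69, 3.57 and 3.64 in Controls. Its difference was 0.94 ± 0.18 (adjusted p = 0.00177), and in bFGF it was 0.43 ± 0.18 (adjusted p = 0.259). Neurog2+Hmgb2 raised the peak over Control in bFGF by 0.64 (adjusted p = 0.0463). Over Hmgb2 in EGF+bFGF the rise was 0.54 (adjusted p = 0.0457). Each of these 2 calls was lost without any 1 of 5 of the compared libraries. The peak lies 1.51 kb from a TSS of any transcript but 9331 bp from that of a protein-coding transcript, and so counts as distal by the stricter reading. The peak at chr4:107830702-107831311, over an internal TSS, rose by 0.69 ± 0.20 with Neurog2 in EGF+bFGF (adjusted p = 0.0398), a call lost without any 1 of 5 libraries, all but Neurog2 replicate 3. Its bFGF difference was 0.04 ± 0.20 (adjusted p = 0.962). The peak at chr4:107828657-107829300 was called on the mean of 4 settings only, with 0.35 ± 0.09 (adjusted p = 0.00691).

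The 2 peaks at the 5′ end of Lrp8 did not pass the test in any of the 6 comparisons or on the mean. The peak over the first TSS (chr4:107801493-107802548) differed by 0.14 ± 0.20 with Neurog2 in EGF+bFGF and by -0.17 ± 0.20 in bFGF. The next one (chr4:107803025-107804283) differed by -0.26 ± 0.14 and 0.15 ± 0.14.

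**Figure D3:**
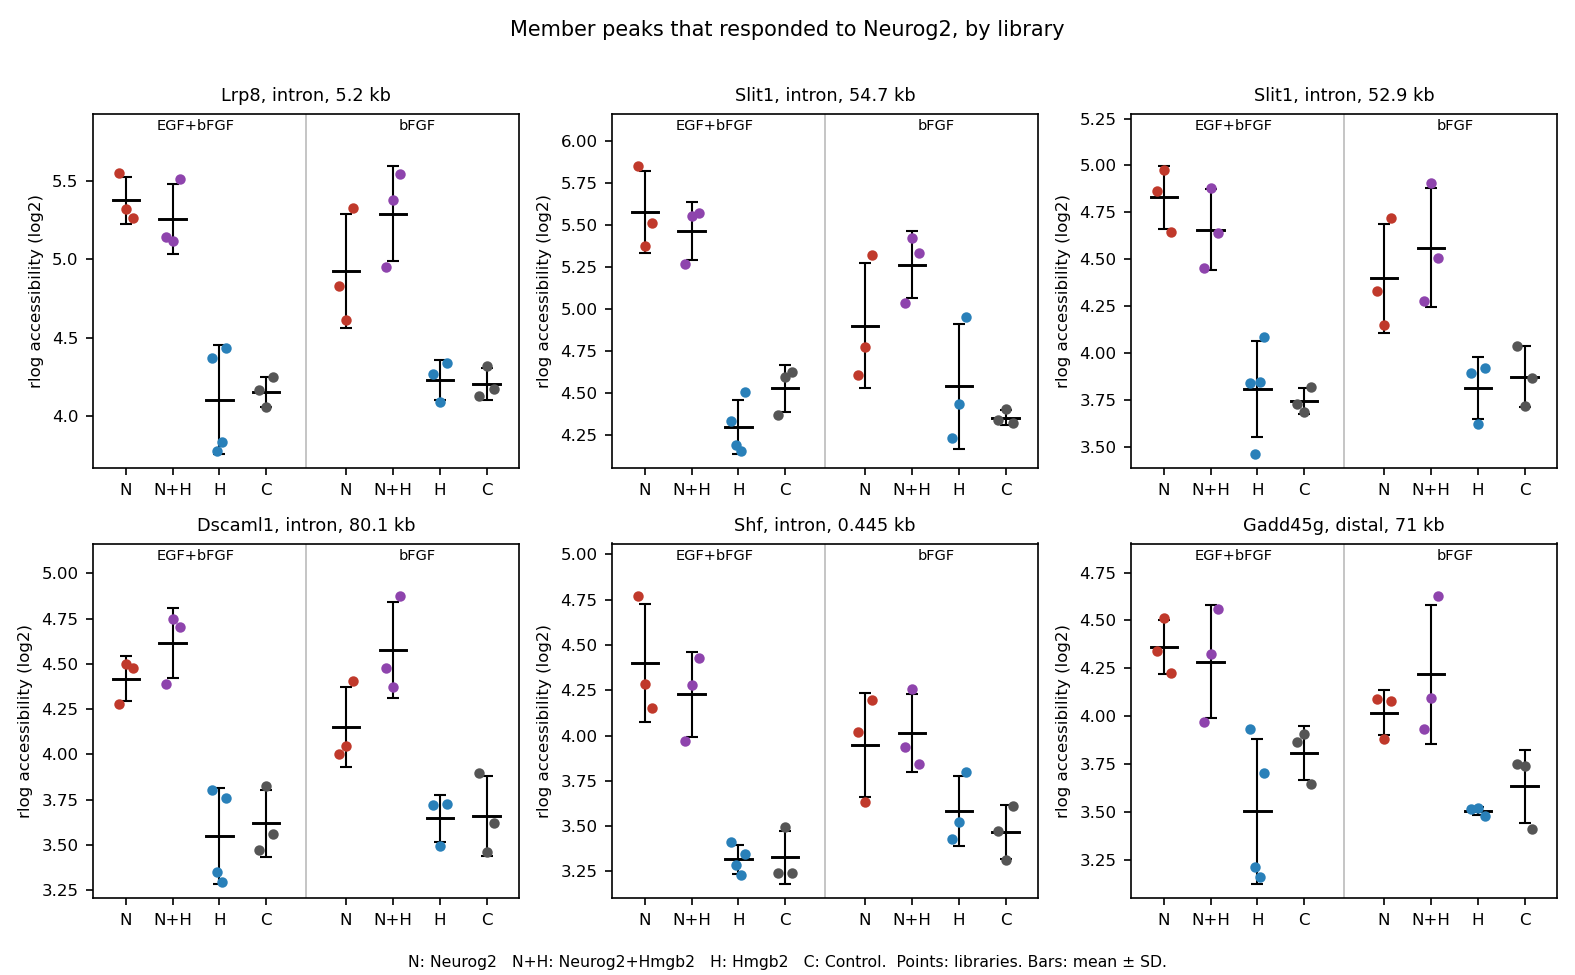
Rlog accessibility (log2, vertical axes) of 6 responding member peaks in all 25 libraries by group (horizontal axes). Points are libraries, bars the group mean ± SD. At the Lrp8 intron site the 12 libraries with Neurog2 lie between 4.61 and 5.55 and the 13 without it between 3.78 and 4.43.

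Slit1, the axon guidance ligand, rose at a cluster of intron sites far from its promoter. Intron site A (chr19:41687926-41688782) lies 54.7 kb from the TSS, on a gene read from the minus strand. In EGF+bFGF it had 5.85, 5.38 and 5.51 with Neurog2, 5.27, 5.55 and 5.57 with Neurog2+Hmgb2, 4.33, 4.19, 4.15 and 4.50 with Hmgb2, and 4.37, 4.59 and 4.62 in Controls. In bFGF it had 4.60, 4.77 and 5.32 with Neurog2, 5.04, 5.42 and 5.33 with Neurog2+Hmgb2, 4.23, 4.43 and 4.95 with Hmgb2, and 4.34, 4.40 and 4.32 in Controls. No group with Neurog2 overlapped its counterpart without it. Neurog2 raised site A over Control by 1.06 ± 0.19 in EGF+bFGF (adjusted p = 0.000966), and the bFGF difference was 0.55 ± 0.19 (adjusted p = 0.15). Neurog2+Hmgb2 raised it over Control by 0.94 in EGF+bFGF (adjusted p = 0.00284) and by 0.91 in bFGF (adjusted p = 0.00532). In bFGF the rise of Neurog2+Hmgb2 over Hmgb2 was 0.73 (adjusted p = 0.035), and 0.57 without both Hmgb2 replicate 1 libraries (adjusted p = 0.205). That bFGF call was also lost without Hmgb2 replicate 2 or Neurog2+Hmgb2 replicate 2 or 3.

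Intron site B (chr19:41690010-41690545), 52.9 kb from the TSS, had 4.87, 4.97 and 4.65 with Neurog2 in EGF+bFGF, against 3.73, 3.69 and 3.82 in Controls. In bFGF it had 4.33, 4.15 and 4.72 with Neurog2, against 4.04, 3.71 and 3.86 in Controls. Neurog2+Hmgb2 libraries had 4.45, 4.88 and 4.64 in EGF+bFGF, against 3.84, 3.46, 3.84 and 4.08 in Hmgb2 libraries, and 4.28, 4.91 and 4.50 in bFGF, against 3.90, 3.62 and 3.92. Every library with Neurog2 was above every library without it. The Neurog2 difference was 1.09 ± 0.19 in EGF+bFGF (adjusted p = 0.000668) and 0.53 ± 0.19 in bFGF (adjusted p = 0.163). Like site A it was called in 5 of 6 comparisons, with a mean over 4 settings of 0.80 ± 0.09 (adjusted p = 1.37e-07), where site A had 0.87 ± 0.09 (adjusted p = 4.2e-08). None of its 3 calls in EGF+bFGF was lost when any 1 library of the compared groups was left out. This does not cover leaving out Control replicates 1 and 2 together, described above, which leaves 1 Control library. In bFGF the call of Neurog2+Hmgb2 over Control was lost without any 1 of 5 libraries, all but Neurog2+Hmgb2 replicate 1, and the call over Hmgb2 without Hmgb2 replicate 1 or 2 or Neurog2+Hmgb2 replicate 2 or 3. Another intron peak (chr19:41697163-41697998, 45.5 kb) rose by 0.60 ± 0.17 in EGF+bFGF (adjusted p = 0.0295), a call lost without Control replicate 2, Neurog2 replicate 2 or Neurog2 replicate 3, and differed by 0.12 ± 0.17 in bFGF (adjusted p = 0.804).

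The other 3 distal peaks of Slit1 were not called. The closest to a call lies 59.1 kb from the TSS (chr19:41683912-41684416), with a Neurog2 difference of 0.49 ± 0.18 in EGF+bFGF and -0.08 ± 0.18 in bFGF. The promoter peak of Slit1 (chr19:41745815-41746636), 2.15 kb from the TSS, had 6.60, 6.74 and 6.75 with Neurog2 in EGF+bFGF, against 6.39, 6.62 and 6.41 in Controls. Those groups overlapped. It was called only for Neurog2+Hmgb2 over Hmgb2 in EGF+bFGF, by 0.52 ± 0.16 (adjusted p = 0.0414), and that call was lost without any 1 of 5 of the 7 libraries.

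Dscaml1, the adhesion molecule, had no promoter peak in the set and 3 intron peaks. The Dscaml1 intron site (chr9:45592379-45592725) had 4.28, 4.50 and 4.48 with Neurog2 in EGF+bFGF, against 3.47, 3.83 and 3.56 in Controls. In bFGF it had 4.00, 4.05 and 4.41 with Neurog2, against 3.90, 3.46 and 3.62 in Controls. With Neurog2+Hmgb2 it had 4.39, 4.75 and 4.70 in EGF+bFGF, against 3.80, 3.35, 3.29 and 3.76 with Hmgb2, and 4.48, 4.37 and 4.88 in bFGF, against 3.72, 3.49 and 3.72. None of these pairs of groups overlapped. Neurog2 raised it by 0.80 ± 0.18 over Control in EGF+bFGF (adjusted p = 0.00753), and the bFGF difference was 0.49 ± 0.18 (adjusted p = 0.187). Neurog2+Hmgb2 raised it over Control by 1.00 in EGF+bFGF (adjusted p = 0.00119) and by 0.92 in bFGF (adjusted p = 0.00381). Over Hmgb2 the bFGF rise was 0.93 ± 0.18 (adjusted p = 0.00479), a call lost without Neurog2+Hmgb2 replicate 3.

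The second Dscaml1 site (chr9:45607445-45607748) rose by 0.59 ± 0.18 with Neurog2 in EGF+bFGF (adjusted p = 0.0467), a call lost without any 1 of 5 libraries, all but Neurog2 replicate 3. Its mean over 4 settings was 0.51 ± 0.09 (adjusted p = 5.3e-05). The third (chr9:45663358-45663730) was not called in any comparison, and its largest difference was 0.35 ± 0.21. The link of these sites to Dscaml1 depends on the annotation. The first lies 80.1 kb from the TSS of any transcript and 162088 bp from the nearest TSS of a protein-coding transcript, the second 65.1 kb and 177154 bp, so both fall outside the 100 kb limit under that reading. The third is then nearest to Cep164.

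Prox1, the homeobox factor, showed little that passed the test. The peak over the start of the gene (chr1:190169991-190171181) had 6.31, 6.16 and 6.26 with Neurog2 in EGF+bFGF, against 6.01, 5.93 and 6.33 in Controls, and 5.98, 6.24 and 6.15 in bFGF, against 6.33, 5.89 and 6.48. The groups overlapped in both cultures. The differences were 0.15 ± 0.17 in EGF+bFGF (adjusted p = 0.748) and -0.11 ± 0.17 in bFGF (adjusted p = 0.832). With Neurog2+Hmgb2 in bFGF the peak had 5.92, 5.78 and 5.83, against 6.25, 6.34 and 6.47 with Hmgb2, without overlap. That difference was -0.51, and the one from Control in bFGF was -0.39. Each was the lowest among the promoter members in its comparison, and neither was called. The second promoter peak of Prox1 (chr1:190169034-190169565) was called once, for Neurog2+Hmgb2 over Hmgb2 in EGF+bFGF, by 0.59 ± 0.18 (adjusted p = 0.0417). That call was lost without any 1 of 5 of the 7 libraries, and the mean over 4 settings was 0.16 (adjusted p = 0.24). The only distal peak of Prox1 (chr1:190265244-190265671, 94.5 kb) had 3.56, 3.14 and 3.35 with Neurog2 in EGF+bFGF, against 3.04, 3.35 and 3.38 in Controls. It was called in none of the 6 comparisons. In bFGF Neurog2+Hmgb2 differed from Control by 0.36 ± 0.16 (adjusted p = 0.29) and from Neurog2 by 0.51 ± 0.16 (adjusted p = 0.597).

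**Figure D4:**
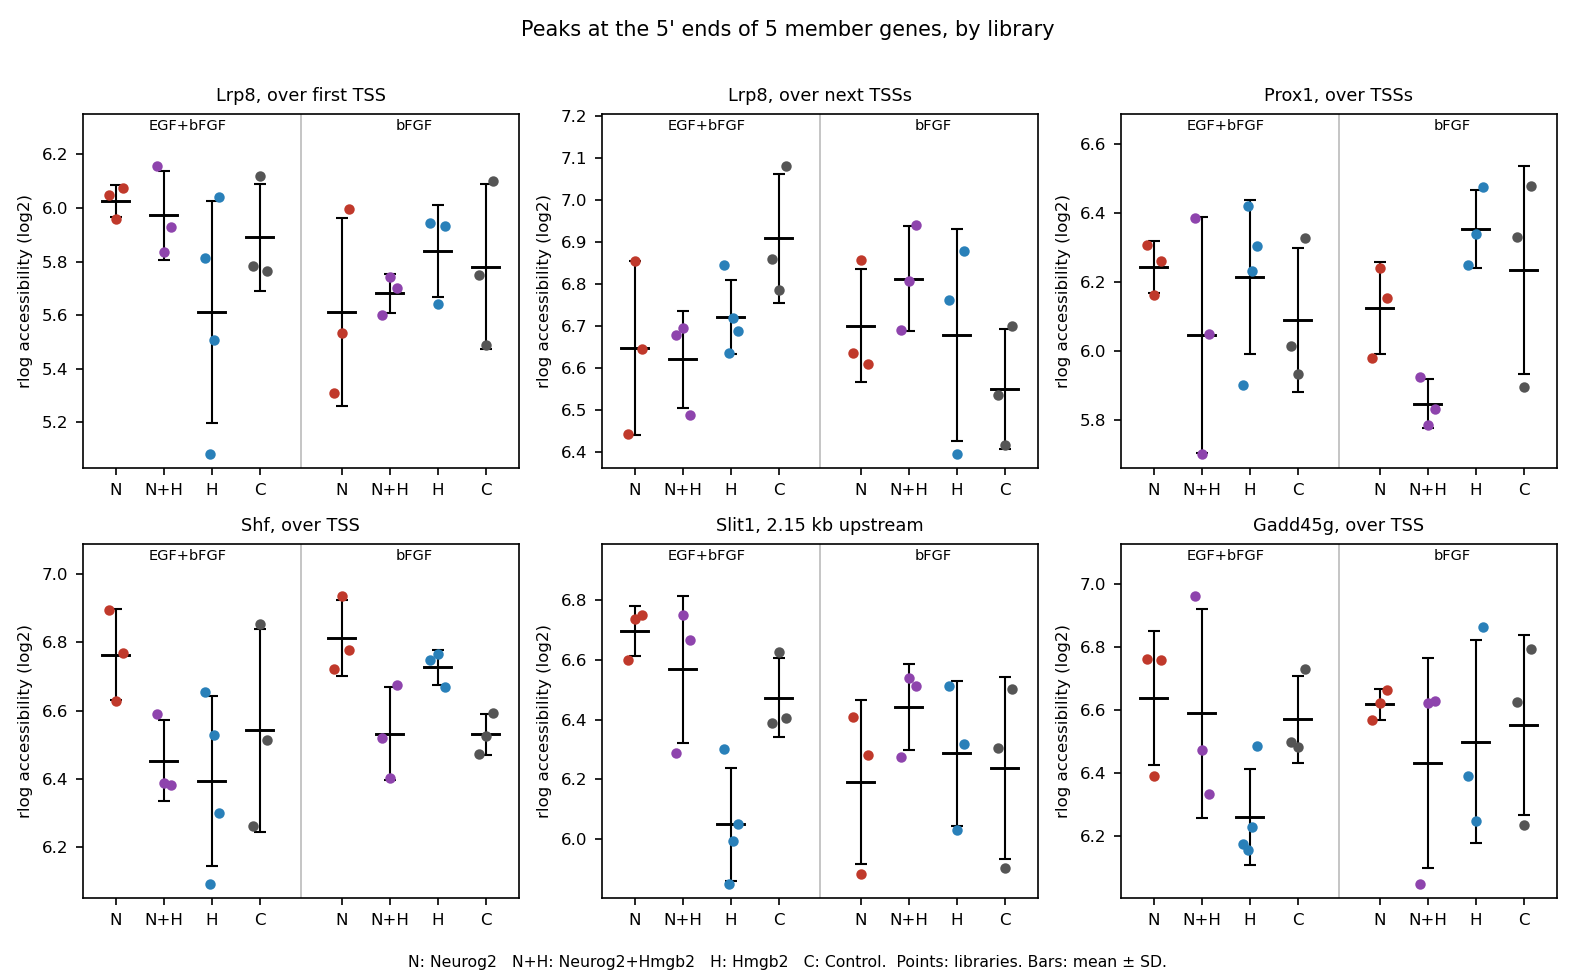
Rlog accessibility (log2, vertical axes) of the 6 peaks at the 5′ ends of Lrp8, Prox1, Shf, Slit1 and Gadd45g in all 25 libraries by group (horizontal axes). Points are libraries, bars the group mean ± SD. Of these peaks the one upstream of Slit1 was called, and in 1 of 6 comparisons, against Hmgb2 in EGF+bFGF.

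Shf, the SH2 adaptor, responded at 1 of its 8 peaks. The Shf intron site (chr2:122366005-122366383) lies 0.445 kb from an internal TSS and 2779 bp from the start of the gene. In EGF+bFGF it had 4.77, 4.28 and 4.15 with Neurog2, 3.97, 4.28 and 4.43 with Neurog2+Hmgb2, 3.42, 3.28, 3.23 and 3.35 with Hmgb2, and 3.24, 3.50 and 3.24 in Controls. In bFGF it had 4.02, 3.63 and 4.20 with Neurog2, 3.94, 4.26 and 3.85 with Neurog2+Hmgb2, 3.43, 3.52 and 3.80 with Hmgb2, and 3.47, 3.31 and 3.61 in Controls. In EGF+bFGF the libraries with Neurog2 lay above all those without it. In bFGF the lowest Neurog2 library stood only just above the highest Control and under the highest Hmgb2 library. Neurog2 raised the site by 1.07 ± 0.18 in EGF+bFGF (adjusted p = 0.000577), exceeded by those of the Lrp8 intron site and Slit1 intron site B among the members in that comparison. In bFGF the difference was 0.48 ± 0.18 (adjusted p = 0.195). It was called in the 3 EGF+bFGF comparisons and in none of the 3 in bFGF, where Neurog2+Hmgb2 differed from Control by 0.55 ± 0.18 (adjusted p = 0.107).

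At the start of Shf (chr2:122368577-122369682) the peak had 6.89, 6.63 and 6.77 with Neurog2 in EGF+bFGF, against 6.26, 6.85 and 6.51 in Controls, with overlap. The difference was 0.22 ± 0.15 (adjusted p = 0.517), and in bFGF it was 0.28 ± 0.15 (adjusted p = 0.405). The 2 other promoter peaks of Shf, at 1.86 and 2.63 kb from a TSS, differed by 0.43 ± 0.19 and 0.03 ± 0.18 with Neurog2 in EGF+bFGF and by -0.17 ± 0.19 and -0.30 ± 0.18 in bFGF. Neither was called. Both lie beyond 3 kb (4949 and 5723 bp) from the TSS of a protein-coding transcript. None of the 4 distal peaks of Shf was called. Their Neurog2 differences ranged from -0.03 to 0.18 in EGF+bFGF and from -0.08 to 0.06 in bFGF, and the one closest to a call, 4.62 kb from a TSS, had 0.34 ± 0.16 for Neurog2+Hmgb2 over Hmgb2 in bFGF (adjusted p = 0.35).

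Gadd45g, the growth arrest gene, rose at 2 of its 6 distal peaks when all settings were averaged. The far site (chr13:51917734-51918166, 71.0 kb) had 4.34, 4.51 and 4.23 with Neurog2 in EGF+bFGF, against 3.87, 3.91 and 3.65 in Controls, and 4.09, 3.88 and 4.08 in bFGF, against 3.75, 3.74 and 3.41. With Neurog2+Hmgb2 it had 3.97, 4.32 and 4.56 in EGF+bFGF, against 3.94, 3.21, 3.16 and 3.70 with Hmgb2. The groups did not overlap. The differences of Neurog2 from Control were 0.55 ± 0.20 in EGF+bFGF (adjusted p = 0.116) and 0.38 ± 0.20 in bFGF (adjusted p = 0.387), below the threshold in each culture. The call came with Neurog2+Hmgb2 over Hmgb2 in EGF+bFGF (0.78 ± 0.19, adjusted p = 0.00803, lost without Neurog2+Hmgb2 replicate 3) and with the mean of 4 settings (0.61 ± 0.10, adjusted p = 2.79e-05).

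The upstream Gadd45g peak (chr13:51833609-51833953, 12.7 kb) rose by 0.46 ± 0.08 on the mean (adjusted p = 0.000129) and by 0.60 ± 0.17 in Neurog2+Hmgb2 over Control in bFGF (adjusted p = 0.0453). It had 4.07, 4.23 and 4.03 in those Neurog2+Hmgb2 libraries, against 3.71, 3.44 and 3.38 in Controls. That bFGF call was lost when any 1 of 5 libraries was left out, all but Control replicate 1. In EGF+bFGF the same peak was called for Neurog2+Hmgb2 over Hmgb2, by 0.56 (adjusted p = 0.026). This call was lost without any 1 of 4 of the 7 libraries. The peak at chr13:51853088-51853670, 6.34 kb from the TSS, was the single member that fell, by 0.33 on the log2 scale over the mean of 4 settings (SE 0.09, adjusted p = 0.00634). It had 4.74, 4.93 and 5.43 with Neurog2 in EGF+bFGF, against 5.31, 5.58 and 5.76 in Controls, with overlap, and was called in none of the 6 comparisons. The peak over the Gadd45g TSS (chr13:51845538-51847131) differed by 0.07 ± 0.19 in EGF+bFGF and by 0.07 ± 0.19 in bFGF. The promoter peak 1.83 kb away differed by -0.11 ± 0.17 and 0.21 ± 0.17, also without a call. The 3 remaining distal peaks had mean differences of 0.15, 0.16 and 0.16 over the 4 settings and were not called.

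**Figure D5:**
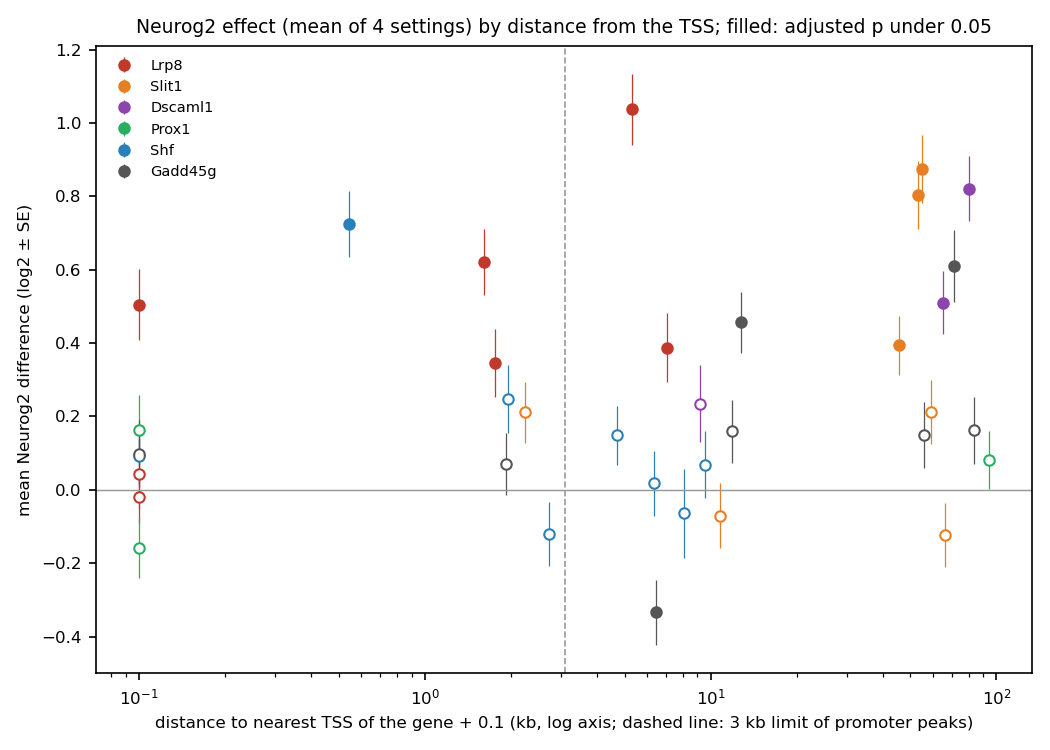
Mean Neurog2 difference over 4 settings (log2 ± SE, vertical axis) by distance from the nearest TSS of the gene (kb, log axis), for the member peaks (all but 1 of the 37) coloured by gene. Filled points passed an adjusted p of 0.05, and the largest value, 1.04, is the Lrp8 intron site at 5.2 kb.

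Whether the response to Neurog2 differed between the cultures was tested as an interaction (bFGF minus EGF+bFGF). No member passed, nor did any other of the 45672 peaks in the limma fit (0.0% called in either direction). At an unadjusted p under 0.05 the interaction was above 0 at 1 member and below 0 at 8, beside 2.95% and 3.32% of all peaks. At the Lrp8 intron site it was -0.50 ± 0.28, at Slit1 intron sites A and B -0.51 ± 0.27 and -0.56 ± 0.26, at the Dscaml1 intron site -0.31 ± 0.26 and at the Shf intron site -0.59 ± 0.26 (adjusted p between 0.771 and 0.916). The largest in size was -0.74 ± 0.26, at the Gadd45g peak 55.7 kb from the TSS (adjusted p = 0.727). A difference between the cultures in the response was not detectable with these libraries. The Controls of the cultures did not differ at any member (0.0% of all peaks called by limma), with bFGF minus EGF+bFGF between -0.46 and 0.66. At an unadjusted p under 0.05, 2 members were higher and 2 lower, beside 3.57% and 3.79% of all peaks.

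Adding Hmgb2 to Neurog2 gave no limma call at a member in either culture. In EGF+bFGF, 0.0153% of all peaks rose with the addition and 0.0% fell, and in bFGF 0.0% did either. In EGF+bFGF the differences ranged from -0.38 to 0.38 over the members, with 1 higher and 2 lower at an unadjusted p under 0.05 (3.01% and 1.98% of all peaks). In bFGF they ranged from -0.31 to 0.51, with 6 higher and 0 lower (3.8% and 3.31% of all peaks). At the sites that responded they were 0.37 ± 0.20 (Lrp8 intron), 0.37 ± 0.19 (Slit1 A), 0.16 ± 0.19 (Slit1 B), 0.43 ± 0.18 (Dscaml1 intron) and 0.07 ± 0.18 (Shf intron) in bFGF. Of the bFGF Neurog2 libraries, replicate 3 stood high over the Hmgb2 coding exon (5.87) and replicate 2 low over that of Neurog2 (10.6). Leaving out either still gave 0 member calls, and their part in the sizes of the differences was not tested. Without Neurog2, Hmgb2 against Control also called no member (0.00219% of all peaks rose in each culture and 0.0% fell). Those differences lay between -0.42 and 0.43 in EGF+bFGF and between -0.32 and 0.29 in bFGF. At an unadjusted p under 0.05, 1 member was higher and 2 were lower in EGF+bFGF (4.62% and 4.56% of all peaks), and 0 either way in bFGF (1.78% and 2.21% of all peaks). A difference between Hmgb2 given with Neurog2 and without it was not found either, with 0.0% of all peaks called in each culture. At an unadjusted p under 0.05 that interaction was above 0 at 3 members and below 0 at 1 in bFGF (3.5% and 2.54% of all peaks), and at 0 members either way in EGF+bFGF (2.5% and 1.24% of all peaks).

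The word CAGATG, read on both strands in 300-base windows at peak centres, stood in 11 of the 23 distal members and in 31.9% of all 21364 distal peaks. It stood in 8 of the 10 distal members that rose on the mean of 4 settings and in 3 of the other 13. Over all distal peaks the shares were 66.6% of those that rose and 26.3% of the others. Among promoter members it stood in 3 of the 4 that rose and in 1 of the other 10, with 382 of 970 (39.4%) and 2078 of 15972 for all promoter peaks. The word CAGCTG stood in 6 of the 10 distal members that rose and in 2 of the other 13, where all distal peaks had 45.3% and 24.4%. The wider E-box CANNTG, which includes both words, stood in 18 of 23 distal members and in 82.9% of all distal peaks. The octamer ATGCAAAT stood in 1 distal member, a Dscaml1 peak that was not called, and in 2.11% of all distal peaks. A match describes the window and is not a binding site.

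The pattern of the Lrp8 intron site over the 8 group means was shared most closely by peaks nearest to Igfbp3 (chr11:7226284-7226716, r = 0.998), Gsg1l (chr7:126008436-126009264, r = 0.9973) and Mdga2 (chr12:67804352-67804634, r = 0.997). Igfbp3 is an insulin-like growth factor binding protein, and the Mdga2 peak lies 582 kb from its TSS. Among the members, Slit1 intron site B came nearest (r = 0.9896). These values describe group means that share 4 groups with Neurog2 and 4 without.

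Genes of the same pathways and families were counted in the same way. Of all distal peaks 5.25% rose and 1.48% fell with Neurog2 in EGF+bFGF, and 1.12% rose in bFGF. Of 4 further neurogenic genes of the study (Neurod4, Insm1, Hes6, Sox11), 2 of 5 distal peaks and 0 of 5 promoter peaks rose with Neurog2 in EGF+bFGF, and 1 distal peak rose in bFGF. All were at Neurod4, a proneural factor of the same class as Neurog2, where the peak 16.6 kb away (chr10:130263208-130263682) rose by 1.62 ± 0.23 in EGF+bFGF (adjusted p = 9.39e-05) and by 1.16 ± 0.23 in bFGF (adjusted p = 0.0105). Around the other reelin pathway genes 1 of 27 distal peaks rose and none fell in EGF+bFGF, no larger a share than over all distal peaks. It was a peak 4.58 kb from a TSS of Fyn, a kinase that acts under the reelin receptors (0.54 ± 0.16, adjusted p = 0.0435). With Neurog2+Hmgb2 over Control a Dab1 peak fell by 0.74 on the log2 scale in EGF+bFGF (adjusted p = 0.00783) and a Rapgef1 peak rose by 0.69 in bFGF (adjusted p = 0.0299). Dab1 is the adaptor that binds the reelin receptors.

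Around the other Slit and Robo pathway genes, 5 of 46 distal peaks rose and 2 fell with Neurog2 in EGF+bFGF, and none did either in bFGF. The rises included Robo2 (0.83 ± 0.18, adjusted p = 0.00437), Robo1 (0.96 ± 0.20, adjusted p = 0.00464) and Srgap3 (0.75 ± 0.17, adjusted p = 0.00583). The falls were at another Srgap3 peak (-0.72 ± 0.21, adjusted p = 0.0418) and at Slit3 (-0.84 ± 0.25, adjusted p = 0.0481). Robo1 and Robo2 are the receptors of Slit proteins. The 3 rising peaks of Robo2, Robo1 and Srgap3 named here also rose in bFGF with Neurog2+Hmgb2 over Control, by 0.96, 0.99 and 0.59. Around paralogs of the members 3 of 23 distal peaks rose with Neurog2 in EGF+bFGF and none in bFGF, all 3 at Shb, an adaptor related to Shf, led by a rise of 0.80 ± 0.17 (adjusted p = 0.00418). No promoter peak of these 4 lists was called with Neurog2 alone in either culture. On the mean of 4 settings 2 of 5 promoter peaks of the neurogenic list rose, beside 5.73% of all promoter peaks. They were at Hes6 (0.49, adjusted p = 0.000202) and Insm1 (0.39, adjusted p = 0.00361). Of the reelin list 1 of 11 rose, of the Slit and Robo list 1 of 18, and of the paralogs 1 of 10 fell. In EGF+bFGF the mean promoter level of the 4 neuronal markers with a promoter peak (Map2, Tubb3, Snap25, Syt1) was 6.18 to 6.22 in Neurog2 libraries, against 5.87 to 6.12 in Controls. In bFGF it was 6.03 to 6.17, against 5.93 to 6.14. The other peaks of the 7 neuronal markers did not all follow. With Neurog2 in EGF+bFGF their 9 promoter and 20 distal peaks had median differences of 0.13 and -0.18. On the mean of 4 settings 3 promoter peaks rose and 1 fell, and 2 distal peaks rose and 6 fell. The part of these levels in the member differences was not tested.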

How the data were processed

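ATAC-seq was analysed in 25 libraries from 8 groups. The authors trimmed reads with cutadapt (per the labels and published methods), aligned them to mm10 with Bowtie2, called peaks per sample with Genrich in ATAC mode (mitochondrial reads and duplicates removed), merged the peaks and counted reads in them. The values that the authors deposited are DESeq2 regularized log2 (rlog) values per merged peak. No counts were used here, so the depth behind each value is unknown.

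Peaks were assigned to the nearest TSS of a protein-coding gene (GENCODE M21, all transcripts). The differences were fitted with limma 3.58.1 in R 4.3.3, with 8 group means, a mean-variance trend and 17 residual degrees of freedom. Benjamini-Hochberg adjustment ran over all 45672 peaks, and an adjusted p under 0.05 counted as a call. The fit was tested on simulated data, drawn as independent normal values without library effects. That test therefore does not cover libraries of unequal quality. Sequences came from GRCm38.p6 (RefSeq).

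The members and gene lists were chosen with earlier results of these data known. All promoter peaks were named, with each distal peak called in one of the 6 comparisons or on the mean and the closest misses. For 1 Lrp8 peak, counted among the members, sequence and values are not reported here. Other lists gave at most 3 genes by smallest p, with the falls of the Slit and Robo list and the promoter calls of Hes6 and Insm1 added. Sequences were shown for distal peaks among the 6 with the smallest p. Alternatives covered normalization, filters, weights, thresholds, a replicate block, the member rule and each library left out. A further pair, without both Hmgb2 replicate 1 libraries and without EGF+bFGF Control replicates 1 and 2, was chosen after seeing the data.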

Additional observations from a re-analysis of the deposited data

Results flagged for a closer look

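In the group of 4 EGF+bFGF Hmgb2 libraries, the Slit1 peak 59.1 kb from the TSS (peakID21940) had 4.70 in replicate 4, where the other 3 libraries lay between 4.58 and 4.60. The gap to the nearest library was 0.889 of the whole range. This was 1 of 37 member peaks tested in that group, and chance flags about 1 in 20.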

How the results depend on the processing

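No value of a called peak changed direction under any alternative. Of 448 values of called peaks under alternatives other than leaving out 1 library, 40 lost the call. Of 654 values with 1 library left out, 88 did. The numbers of member peaks called under an alternative that moved them by more than 1.5 times were as follows, and the cause was not tested unless named. For Neurog2 over Control in EGF+bFGF (10), library weights gave 16, an adjusted p under 0.01 gave 6, a difference over 1 gave 4, and leaving out Control replicates 1 and 2, which leaves fewer samples, gave 1. In bFGF (0), the replicate block gave 1, median centring gave 1 and library weights, which favour Neurog2 replicate 3, gave 9. For Neurog2+Hmgb2 over Control in EGF+bFGF (6), library weights gave 10, a difference over 1 gave 1 and leaving out Control replicates 1 and 2 gave 0. In bFGF (7), quantile normalization, a fit of the compared groups only and an adjusted p under 0.01 gave 3 each, and a difference over 1 gave 1. For Neurog2+Hmgb2 over Hmgb2 in EGF+bFGF (15), an adjusted p under 0.01 gave 8 and a difference over 1 gave 3. In bFGF (6), a fit of the compared groups only gave 3, an adjusted p under 0.01 gave 2, a difference over 1 gave 1, and leaving out both Hmgb2 replicate 1 libraries gave 3. On the mean of 4 settings (15), a difference over 1 gave 1.

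With 1 library left out at a time, the counts ranged from 6 to 10 for Neurog2 over Control in EGF+bFGF and from 0 to 1 in bFGF. They ranged from 5 to 7 and from 3 to 6 for Neurog2+Hmgb2 over Control in EGF+bFGF and in bFGF, from 5 to 16 and from 1 to 6 over Hmgb2, and from 15 to 18 on the mean. The other comparisons stayed at 0.

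Libraries with the same replicate number deviated together weakly at most (84 pairs, r from -0.474 to 0.465, median 0.0466, 32 over 0.1). The median over pairs with different numbers was -0.0543. For 4 of 25 libraries the mean correlation was highest with their own number. Whether an equal number marks a shared preparation could not be told from these values. The replicate block raised the count in bFGF for Neurog2 over Control to 1 (the Lrp8 intron site, adjusted p = 0.046) and lost 0 of 59 calls. Counting only TSSs of protein-coding transcripts, or 1 TSS per gene, gave 32 member peaks, and a limit of 50 kb gave 27. Without counts, the depth that limits small differences at weak peaks could not be judged.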
